A study of Homo sapiens with 6 samples.

Results

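Transcript levels of ATF4 stress response genes were measured in PA1, an established line of human ovarian teratocarcinoma cells, with and without knockdown of the pluripotency factor SOX2. The genes are ATF4 and 9 genes of its pathway, chosen by name as a known pathway, by a rule that uses no measured value, though with earlier results of these data known: ATF4, ATF3, DDIT3, TRIB3, CHAC1, ASNS, PSAT1, PHGDH, SLC7A11 and SLC7A5. All 10 were among the 59653 gene symbols of the count table, and all 10 were among the 17592 genes that passed the filter on low counts. The cells, labelled wildtype, received a negative control small interfering RNA (siRNA) or siRNA against SOX2, with 3 mRNA sequencing libraries of each. The labels name 2 SOX2 siRNAs without saying whether they were pooled. All cells stood in adherent culture for 24 h after transfection and then for 72 h on poly-HEMA, a coating to which cells do not attach, so both groups share the suspension culture.

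The integrated stress response slows protein synthesis when amino acids run short, unfolded protein builds up in the endoplasmic reticulum (ER) or double-stranded RNA is sensed. Kinases then phosphorylate the initiation factor eIF2alpha, which lowers translation of most mRNAs but raises that of ATF4, a bZIP transcription factor whose mRNA carries upstream open reading frames. ATF4 protein in turn raises genes for amino acid uptake and synthesis and, with stronger or longer stress, genes linked to cell death. Counts of mRNA show transcript levels and not translation, so the ATF4 count does not measure ATF4 protein.

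The DNA element bound by ATF4 with C/EBP partners has the core TGATGNAA, and promoter windows from 250 bases before to 50 bases after each annotated start were searched for it on both strands. RefSeq windows (GRCh38.p14) were matched by symbol for 9 of the 10 genes, all but SLC7A11. The core was found in windows of ATF3, ASNS and CHAC1. ATF3 and ASNS had 2 windows each, for different annotated starts, and only 1 window of each held the core. CHAC1 had 1 window. Over all genes it was in 3.62% of the 35116 windows, and 4.46% of the 27305 genes with a window held it. These 3 stretches are shown because the core stands near an annotated start of 1 gene that fell and of 2 genes that were not called. The capitals mark the core, which in CHAC1 is read from the opposite strand.

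ATF3 (chr1:212565190-212565249, plus strand, core 191 to 184 bases upstream of the start): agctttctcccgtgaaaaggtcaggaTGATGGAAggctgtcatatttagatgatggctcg
ASNS (chr7:97872443-97872502, minus strand, core 68 to 61 bases upstream): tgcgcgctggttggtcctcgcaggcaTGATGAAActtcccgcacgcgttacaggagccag
CHAC1 (chr15:40953236-40953295, plus strand, core 209 to 202 bases upstream): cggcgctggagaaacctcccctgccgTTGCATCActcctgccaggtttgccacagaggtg

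With SOX2 siRNA, ATF3 had a log2 fold change of -0.66, ASNS of 0.09 and CHAC1 of 0.60, and of these only the change of ATF3 passed the test described below. The cAMP response element TGACGTCA was in none of the 9 genes' windows and in 1.85% of all windows (2.25% of genes with a window). The AP-1 site TGACTCA was in the windows of DDIT3 and in 4.95% of all windows (6.05% of genes with a window). A match describes letters in a window and does not show binding.

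Library totals ranged from 25152313 to 32753184 counts, and 3 counts, used as a floor, equalled 0.0909 to 0.12 CPM (the count of a gene divided by its library's scaled size and set to a common total). SOX2 fell to a fold of 0.206 of control (95% interval 0.193 to 0.219). Of 8 PA1 pluripotency markers, POU5F1, LIN28A, LIN28B, SALL4 and PODXL were abundant in every library. TERF1 was at 57.9 to 66.3 CPM, whereas L1TD1 and DPPA4 were at 3.08 CPM or less. In the test described below, POU5F1, LIN28A and LIN28B were called higher (log2 fold changes 0.17, 0.70 and 0.59) and PODXL lower (-0.97). The calls made up 50% of the 8, against 28.2% of all tested genes. Of 12 markers of blood, endothelium, liver, pancreas, muscle and stroma, INS had 0 counts, and PTPRC, CD3E, MYH11 and DCN had at most 10 counts in any library. The summed level of the 12 was 109 to 121 CPM in control libraries, against 160 to 178 CPM after SOX2 knockdown, with PDGFRB higher (log2 fold change 1.89) and PECAM1, CDH5 and VWF lower (-0.55, -0.71 and -0.61). LYZ ranged from 2.11 to 14.6 CPM over the control libraries and from 1.48 to 18.0 CPM over the SOX2 siRNA libraries. ALB, with 2 to 68 counts, ranged from 0.104 to 2.06 CPM in control and from 0.0619 to 1.89 CPM with SOX2 siRNA. Within each group LYZ and ALB ranked the libraries in the same order. The part of these markers in the results below was not tested. Nothing in the labels says that the libraries of a group came from separate cultures, so p-values measure only the spread between these libraries.

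SOX2 siRNA moved the ATF4 genes in both directions and by small amounts. ATF4 itself and the amino acid transporter SLC7A5 rose, the stress-induced transcription factor ATF3 and the cystine transporter SLC7A11 fell, and the other 6 genes did not pass the test. Genes were tested with the quasi-likelihood method of edgeR, and p-values adjusted by Benjamini-Hochberg across the whole table were called under 0.05. It called 4 of the 10 genes, 2 higher and 2 lower, where it called 28.2% of all tested genes, 14.8% as higher and 13.4% as lower. Only 1 member, SLC7A5, was called higher without control replicate 2 or 3 or SOX2 siRNA replicate 2 or 3, and 3 were without control replicate 1. The median log2 fold change of the 10 genes was 0.11, against -0.00085 for all tested genes, with 7 positive and 3 negative values. Control and SOX2 siRNA libraries did not overlap for 6 of the 10 genes and for 41.8% of all tested genes. An exact two-sided permutation test of a single gene over 3 against 3 libraries cannot give less than p = 0.1, which it gave for those 6 genes.

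**Figure D1:**
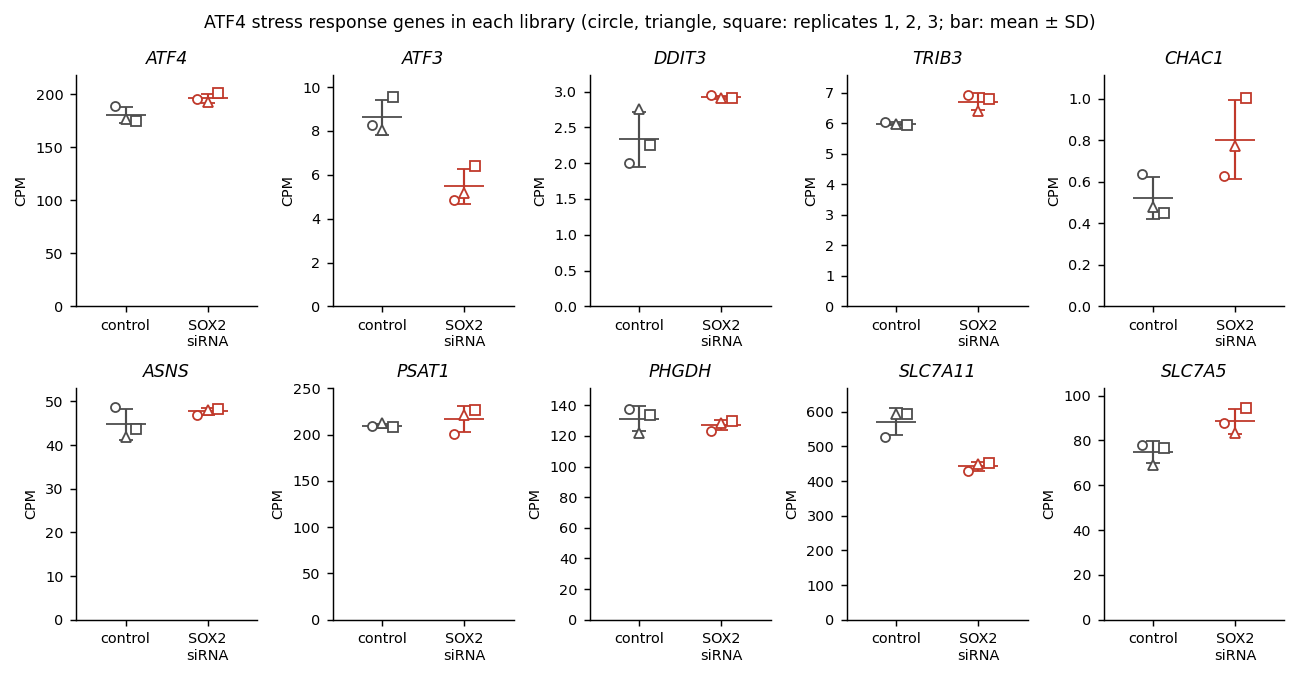
CPM of each of the 10 genes (vertical axes start at 0) in the 3 control siRNA and 3 SOX2 siRNA libraries; symbols mark replicates 1 to 3 and bars the mean ± SD. ATF3 and SLC7A11 were lower in every SOX2 siRNA library, and ATF4, DDIT3, TRIB3 and SLC7A5 were higher in every one.

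The transcription factors were examined first. ATF4 was at 189, 177 and 174 CPM in control replicates 1 to 3 and at 196, 193 and 201 CPM in SOX2 siRNA replicates 1 to 3. Every SOX2 siRNA library lay above every control library, by as little as 0.03 on the log2 scale for the closest pair. The mean rose from 180 ± 7.69 to 196 ± 4.20 CPM (SD, n = 3), a fold of 1.09 (95% interval 1.03 to 1.15; edgeR adjusted p = 0.0228). In 4 of the 6 fits that each left out 1 library, ATF4 did not pass. The edgeR adjusted p was 0.0783 without control replicate 2, 0.119 without control replicate 3, 0.0543 without SOX2 siRNA replicate 2 and 0.0887 without SOX2 siRNA replicate 3.

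ATF3, a bZIP factor that ATF4 and other stress pathways induce, was the only transcription factor of the 10 genes that fell. It was at 8.27, 8.06 and 9.55 CPM in control replicates 1 to 3 and at 4.87, 5.16 and 6.39 CPM in SOX2 siRNA replicates 1 to 3. The highest SOX2 siRNA library, replicate 3, stayed below the lowest control library. The mean fell from 8.63 ± 0.804 to 5.48 ± 0.808 CPM (SD, n = 3), a fold of 0.634 (95% interval 0.536 to 0.750; log2 fold change -0.66, SE 0.11; edgeR adjusted p = 2.97e-04). Of all called genes, 21.0% changed at least as much as ATF3. ATF4 had the smallest change of the 4 called members, exceeded or equalled by 96.4% of called genes.

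DDIT3 encodes CHOP, a factor downstream of ATF4 that is linked to cell death under ER stress. It had 66, 69 and 65 counts in control replicates 1 to 3, against 89, 94 and 87 counts after SOX2 knockdown. In CPM these were 2.00, 2.75 and 2.25 against 2.95, 2.91 and 2.91, so the control libraries spread more than the SOX2 siRNA libraries, and control replicate 2 came close to them. The fold was 1.26 with a 95% interval of 0.994 to 1.59 (edgeR adjusted p = 0.144). A limit of DDIT3 is its position: 27.2% of its exon length overlaps exons of MARS1 on the opposite strand (GENCODE 29), a gene with mean levels of 125 CPM (control) and 134 CPM (SOX2 siRNA), and no source used here states whether counting used strand. MBD6, also opposite, overlaps 4.44% and had mean levels of 32.3 CPM (control) and 34.8 CPM (SOX2 siRNA). AC022506.1 overlaps 8.03% on the same strand, which counting by strand would not remove, and was not among the tested genes by that symbol.

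TRIB3 and CHAC1 are induced by ATF4 and CHOP together. TRIB3, a pseudokinase that feeds back on ATF4, was at 6.03, 5.99 and 5.95 CPM in control and at 6.92, 6.40 and 6.79 CPM in SOX2 siRNA replicates 1 to 3. Its groups did not overlap, and its fold was 1.12 (95% interval 0.972 to 1.29; edgeR adjusted p = 0.238). CHAC1, an enzyme that breaks down glutathione, was near the lower end of what could be counted, with 21, 12 and 13 counts in control replicates 1 to 3, against 19, 25 and 30 counts after SOX2 knockdown. Exact Poisson 95% intervals, which cover counting error only, ran from 6.20 to 21.0 counts in control replicate 2, the lowest count, and from 20.2 to 42.8 in SOX2 siRNA replicate 3, the highest. In CPM, control replicate 1 (0.636) lay just above SOX2 siRNA replicate 1 (0.629), so the groups overlapped. CHAC1 had a fold of 1.52 with a 95% interval of 0.986 to 2.34 (edgeR adjusted p = 0.146), and at this depth neither no change nor a doubling could be told from the observed value.

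**Figure D2:**
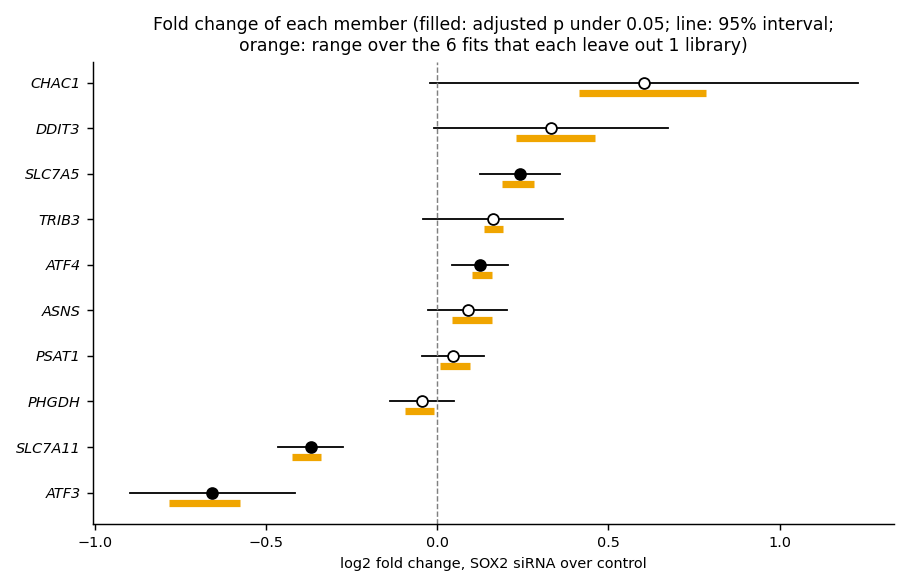
Log2 fold change of each gene, SOX2 siRNA over control (horizontal axis), with its 95% interval as a line; filled points had an edgeR adjusted p under 0.05, and orange bars span the 6 fits that each left out 1 library. The 4 filled points are SLC7A5 and ATF4 on the right and SLC7A11 and ATF3 on the left, and no orange bar crosses 0.

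The 3 enzymes of amino acid synthesis were not called, and their 95% intervals of the fold lay between 0.908 and 1.15. The interval of ASNS overlapped that of ATF4 (1.03 to 1.15), and no difference between genes was tested. ASNS, asparagine synthetase, was at 48.8, 41.8 and 43.7 CPM in control and at 46.8, 48.0 and 48.3 CPM in SOX2 siRNA replicates 1 to 3. Control replicate 1 was the highest of all 6 and control replicate 2 the lowest, so the groups overlapped. The ASNS fold was 1.06 (95% interval 0.982 to 1.15; edgeR adjusted p = 0.251), and the gene was called without control replicate 1 (log2 fold change 0.16, edgeR adjusted p = 0.0279). In GENCODE 29, 44.6% of the exon length of ASNS overlaps a non-coding transcript on the same strand, AC079781.5, which had mean levels of 4.28 CPM (control) and 4.96 CPM (SOX2 siRNA).

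PHGDH catalyses the entry step of serine synthesis, and PSAT1 the step after it. PHGDH was at 138, 122 and 134 CPM in control and at 124, 129 and 130 CPM in SOX2 siRNA replicates 1 to 3, with every SOX2 siRNA value inside the control range. Its fold was 0.969 (95% interval 0.908 to 1.03; edgeR adjusted p = 0.499). PSAT1 was at 209, 212 and 208 CPM in control and at 201, 222 and 227 CPM in SOX2 siRNA replicates 1 to 3, so the control values lay inside the SOX2 siRNA range. Its fold was 1.03 (95% interval 0.970 to 1.10; edgeR adjusted p = 0.468).

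The transporters parted. SLC7A11 forms the cystine-glutamate exchanger, which supplies cysteine for glutathione, and SLC7A5 forms an exchanger of large neutral amino acids such as leucine; both work as pairs with the heavy chain SLC3A2. SLC7A11 was at 527, 594 and 594 CPM in control and at 428, 448 and 451 CPM in SOX2 siRNA replicates 1 to 3. Every SOX2 siRNA library was lower, and the control group contained the more distant value, replicate 1. The mean fell from 572 ± 38.7 to 442 ± 12.1 CPM (SD, n = 3), a fold of 0.774 (95% interval 0.724 to 0.827; log2 fold change -0.37, SE 0.04; edgeR adjusted p = 1.43e-05). Over the 15 alternative analyses its log2 fold change ranged from -0.43 to -0.34.

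SLC7A5 was at 78.1, 69.1 and 76.8 CPM in control and at 87.6, 83.3 and 94.5 CPM in SOX2 siRNA replicates 1 to 3. Replicate 2 was the lowest library of each group, and the groups did not overlap. The mean rose from 74.7 ± 4.90 to 88.5 ± 5.65 CPM (SD, n = 3), a fold of 1.18 (log2 fold change 0.24, 95% interval 0.13 to 0.36, SE 0.05; edgeR adjusted p = 0.00377). SLC3A2 had a fold of 1.03 (95% interval 0.975 to 1.09; edgeR adjusted p = 0.437). The ratio of SLC7A11 to SLC7A5, each in CPM per kilobase of exon, was 3.32, 4.23 and 3.80 in control replicates 1 to 3, against 2.41, 2.64 and 2.35 after SOX2 knockdown. The ratio was lower in each SOX2 siRNA library than in any control library, which follows from the opposite shifts of these genes and adds no evidence.

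Levels of different genes can be compared only per length. The lengths used join the exons of all annotated transcripts of a gene (9217 bases for PHGDH). A gene whose expressed transcript is shorter than this is placed too low, so the order between genes depends on these lengths. Per kilobase of exon, using GENCODE 29 exon lengths, the order in control libraries was PSAT1 (95.8 ± 1.09 CPM per kilobase, SD, n = 3), ATF4 (71.7 ± 3.06), SLC7A11 (59.3 ± 4.01), SLC7A5 (15.7 ± 1.03), PHGDH (14.2 ± 0.882), ASNS (10.04 ± 0.816), ATF3 (2.14 ± 0.199), DDIT3 (1.79 ± 0.294), TRIB3 (1.74 ± 0.0116) and CHAC1 (0.254 ± 0.0487). The 3 enzymes of amino acid synthesis, the transporters and ATF4 thus lay well above the stress-induced regulators ATF3, DDIT3 and TRIB3, and CHAC1 lay lowest. Within that order the control libraries of SLC7A5 and PHGDH overlapped, as did those of ATF3 and DDIT3 and those of DDIT3 and TRIB3. With SOX2 siRNA, ATF3 was at 1.36 ± 0.200 CPM per kilobase, below DDIT3 (2.24 ± 0.0172) and TRIB3 (1.95 ± 0.0791) in every library. Sums of CPM are not divided by length and so weight long genes, and SLC7A11 has the longest exon length of the 10 (9645 bases). Its share of such a sum therefore does not give its share of transcripts. With that limit, SLC7A11 took 46.5% ± 2.42 of the CPM summed over the 10 genes in control libraries, against 39.0% ± 0.405 after SOX2 knockdown (SD, n = 3). The sum itself was 1206 to 1249 CPM in control libraries, against 1098 to 1169 CPM after SOX2 knockdown, and without SLC7A11 it was 640 to 679 and 669 to 718 CPM.

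**Figure D3:**
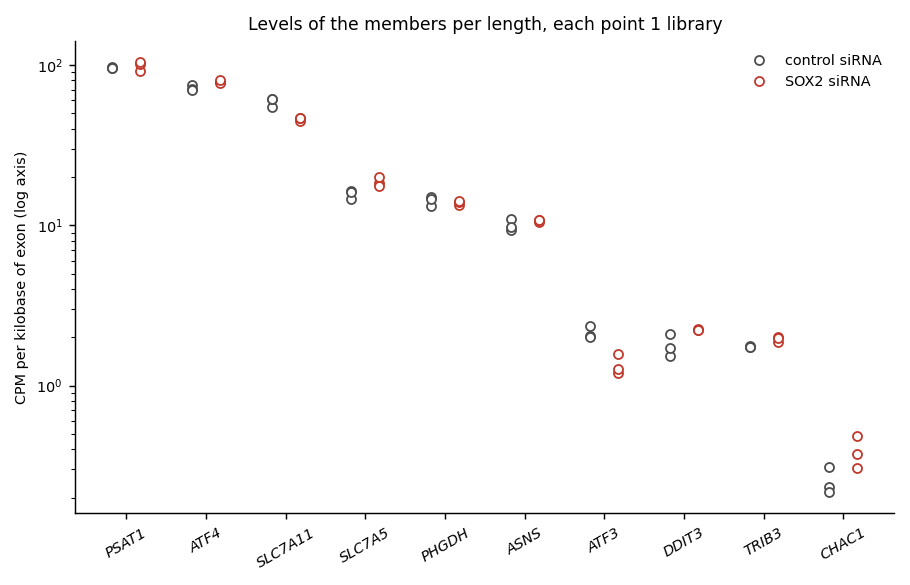
CPM per kilobase of exon (log axis) of each gene in each of the 6 libraries, ordered by the control mean. PSAT1, ATF4 and SLC7A11 lead in both groups, and ATF3 moves from above DDIT3 and TRIB3 on average in control to below both with SOX2 siRNA. The order between genes depends on the exon lengths used.

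Compared library by library, each SOX2 siRNA library was set against each control library, which gives 9 pairs that share libraries. ATF4, DDIT3, TRIB3 and SLC7A5 were higher in 9 of 9 pairs, and ATF3 and SLC7A11 were lower in 9 of 9. CHAC1 was higher in 8, ASNS and PSAT1 in 6 and PHGDH in 3 of the 9 pairs. The log2 differences ran from -0.97 to -0.33 for ATF3, from -0.47 to -0.23 for SLC7A11, from 0.09 to 0.45 for SLC7A5 and from 0.03 to 0.20 for ATF4.

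Within the SOX2 siRNA group most of the 10 genes deviated the same way: replicate 3 lay above the group mean for 9 of them, all but DDIT3, and replicate 1 below it for 8, all but DDIT3 and TRIB3. Among control libraries signs were mixed: replicate 1 was above its group mean for ATF4, ASNS, PHGDH, SLC7A5 and CHAC1 and below it for SLC7A11, DDIT3 and ATF3. Deviations were taken in log2(CPM + 0.5), and the added 0.5 shrinks those of genes at low CPM, most of all CHAC1. In the SOX2 siRNA group the widest spread was that of ATF3 and CHAC1, with replicate 3 highest for ATF3 (0.21 above the group mean of log2(CPM + 0.5)) and CHAC1 (0.22) and replicate 1 lowest (-0.15 and -0.20). Hypoxia genes, which spread widely in that group, deviated the other way, by 0.48 in replicate 1 and -0.48 in replicate 3 as the mean of 15 genes. The part of this spread in the values of the 10 genes was not tested. With SOX2 siRNA replicate 1 left out the log2 fold change of ATF3 was -0.58, and with replicate 3 left out it was -0.78.

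**Figure D4:**
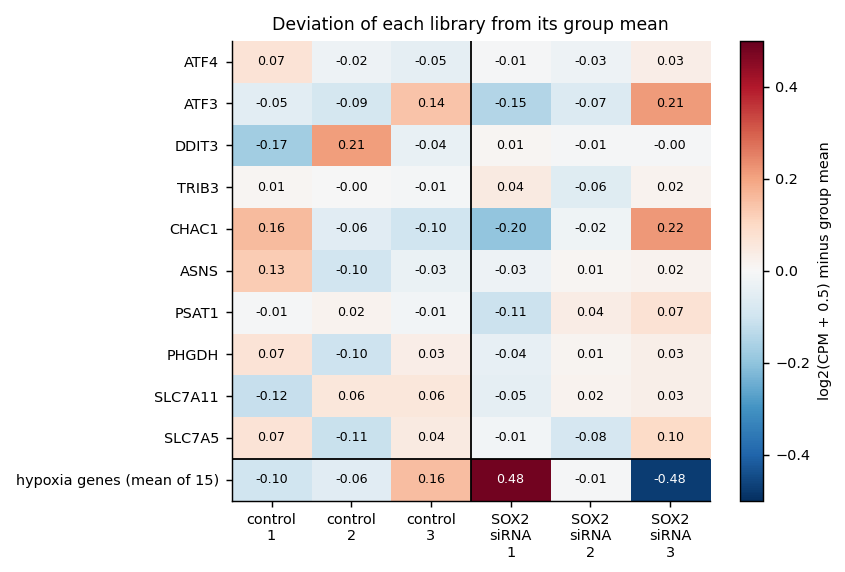
Deviation of each library (columns) from its group mean in log2(CPM + 0.5) for the 10 genes and for the mean of 15 hypoxia genes (colour scale and printed values). SOX2 siRNA replicates 1 and 3 lie 0.48 above and below their group mean for hypoxia genes, while the 10 genes deviate by at most 0.22 on this scale. The added 0.5 shrinks the deviations of genes at low CPM, most of all those of CHAC1.

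The genes with the most similar pattern of within-group deviation to the mean of 9 of the 10 genes (all but CHAC1, whose average level was too low) were PLGRKT, NTS, CKS2, GRB2 and GYG2. Their Pearson correlations over the 6 libraries were at least 0.996, and they are the highest of the 12111 genes compared, so values this high are what the selection gives. NTS and CKS2 were higher with SOX2 siRNA (log2 fold changes 0.78 and 0.28) and GYG2 was lower (-0.20), while PLGRKT and GRB2 were not called.

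Upstream of ATF4 stand the kinases and phosphatase subunits that set eIF2alpha phosphorylation. The list of 10 genes tested also holds EIF2S1, which encodes eIF2alpha itself and was not called (log2 fold change 0.05). Of the 10, 0 were called higher and 2 lower, or 20% against 28.2% of all tested genes, with a median log2 fold change of 0.01. EIF2AK2, which encodes the double-stranded RNA sensor kinase PKR, fell from 180 ± 7.43 to 145 ± 1.43 CPM (SD, n = 3), a log2 fold change of -0.32 (edgeR adjusted p = 5.63e-06). PPP1CB, a catalytic subunit of protein phosphatase 1, had a log2 fold change of -0.18 (edgeR adjusted p = 0.0018). PPP1R15A, the stress-induced subunit known as GADD34 that recruits the phosphatase to eIF2alpha and is itself an ATF4 pathway gene, had a log2 fold change of 0.13 (edgeR adjusted p = 0.138), with 17.3 ± 0.782 CPM in control libraries and 18.9 ± 0.292 CPM after SOX2 knockdown. The sensor kinases EIF2AK1, EIF2AK3 and EIF2AK4 had log2 fold changes of 0.03, 0.05 and -0.02 and were not called.

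Among 17 bZIP factors that pair with or resemble ATF4 and ATF3, 3 were called higher and 1 lower. This was 23.5%, against 28.2% of all tested genes, and the median log2 fold change was 0.07. MAFG, a small MAF protein, rose from 29.8 ± 1.23 to 38.4 ± 0.755 CPM (SD, n = 3), a log2 fold change of 0.36 (edgeR adjusted p = 3.19e-05). JDP2, a repressor related to ATF3, had a log2 fold change of 0.34 (edgeR adjusted p = 0.0225), a call lost with DESeq2 and without control replicate 2 or 3 or SOX2 siRNA replicate 2 or 3 (edgeR adjusted p up to 0.125). JUN, a partner of ATF3 in AP-1, fell from 18.4 ± 1.62 to 14.3 ± 1.71 CPM (log2 fold change -0.37; edgeR adjusted p = 0.00525). The count of called bZIP factors was 2 without control replicate 2, without control replicate 3 or without SOX2 siRNA replicate 2.

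Enzymes of amino acid and folate metabolism beyond the 3 above also split, with 3 of 16 called higher and 4 lower. Together 43.75% were called, against 28.2% of all tested genes, and the median log2 fold change was 0.01. ASS1, argininosuccinate synthase of the arginine pathway, had the largest change in any of these stress lists by absolute log2 value, from 15.9 ± 1.35 to 35.7 ± 3.84 CPM (SD, n = 3), a log2 fold change of 1.16 (edgeR adjusted p = 3.04e-07). Mitochondrial folate enzymes known as ATF4 targets went both ways: MTHFD2 and SHMT2 had log2 fold changes of 0.21 and 0.12 (edgeR adjusted p = 0.00136 and 0.0227) and ALDH1L2 of -0.24 (edgeR adjusted p = 0.0113), and MTHFD1L, at -0.08, was not called. CTH, which makes cysteine from cystathionine, had a log2 fold change of -0.29 (edgeR adjusted p = 0.0163). The cytosolic folate enzyme MTHFD1 and the branched-chain aminotransferase BCAT1 had log2 fold changes of -0.22 and -0.21 (edgeR adjusted p = 2.17e-04 and 2.71e-04). Without control replicate 3, 4 of the 16 were called.

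Of 11 further amino acid transporters, 4 were called higher and 1 lower, or 45.5% against 28.2% of all tested genes. The median log2 fold change was 0.03. The glycine transporter SLC6A9 rose from 4.97 ± 0.133 to 7.18 ± 0.424 CPM (SD, n = 3), a log2 fold change of 0.53 (edgeR adjusted p = 6.8e-04). SLC38A2, a neutral amino acid transporter induced by amino acid shortage, had a log2 fold change of 0.22 (edgeR adjusted p = 1.16e-04), and SLC7A3, a cationic amino acid transporter, of -0.36 (edgeR adjusted p = 4.17e-04). SLC1A5 and SLC7A1 were the other two that rose, by 0.19 and 0.17 on the log2 scale.

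The 20 cytosolic tRNA synthetases, several of which ATF4 is known to induce, had 1 called higher and 5 lower. Their share called, 30%, was near the 28.2% of all tested genes, and the median log2 fold change was -0.02. The changes were small: GARS1 had a log2 fold change of 0.11 and EPRS1 of -0.18 (edgeR adjusted p = 0.0278 and 8.43e-04). The call of GARS1 was lost with upper-quartile scaling and without control replicate 3, SOX2 siRNA replicate 2 or SOX2 siRNA replicate 3 (edgeR adjusted p = 0.0548, 0.121, 0.133 and 0.0946). The count fell from 6 to 2, 1, 2 and 3 without control replicate 2, control replicate 3, SOX2 siRNA replicate 2 and SOX2 siRNA replicate 3.

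Other stress-induced genes also changed in both directions, with 4 of 19 tested called higher and 3 lower. Calls made up 36.8% of them, against 28.2% of all tested genes, with a median log2 fold change of -0.01. The cell cycle inhibitor gene CDKN1A rose from 14.1 ± 0.344 to 24.8 ± 2.80 CPM (SD, n = 3), a log2 fold change of 0.81 (edgeR adjusted p = 4.74e-07), and SESN2, an inhibitor of mTORC1 signalling, had a log2 fold change of 0.49 (edgeR adjusted p = 2.69e-05); both are also targets of p53. TRIB2, a relative of TRIB3, had a log2 fold change of -0.24 (edgeR adjusted p = 6.51e-04). DDIT4 and VEGFA, which respond to both stress and hypoxia, were chosen after their values were seen. DDIT4 was at 69.9, 54.1 and 35.5 CPM and VEGFA at 45.1, 26.9 and 16.1 CPM in SOX2 siRNA replicates 1 to 3, the same order as the hypoxia genes as a group, and neither was called (edgeR adjusted p = 0.390 and 0.853). VEGFA is itself in the list of hypoxia genes, so its order is partly that of the group by construction. A part of hypoxia in these values was not tested. FGF21, a secreted ATF4 target, had 0 counts in all 6 libraries and was not tested. Without control replicate 1, 4 of the 19 were called.

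ER chaperones and genes of the ATF6 and XBP1 arms, the branches of the unfolded protein response that run beside ATF4, held the most calls in a single direction among these lists. Of 20 tested, 10 were called higher and 1 lower, with a median log2 fold change of 0.15 and 15 positive values, against 14.8% of all tested genes called higher. PDIA4, a protein disulphide isomerase, rose from 239 ± 2.48 to 322 ± 9.08 CPM (SD, n = 3), a log2 fold change of 0.43 (edgeR adjusted p = 4.27e-08). DNAJC3 and CALR, a co-chaperone that inhibits eIF2alpha kinases and the chaperone calreticulin, had log2 fold changes of 0.33 and 0.27 (edgeR adjusted p = 5.88e-06 and 6.75e-06). HSPA5, the chaperone BiP, rose by 0.17 on the log2 scale, and calnexin (CANX) fell by 0.14. XBP1, ERN1 and ATF6 themselves had log2 fold changes of -0.02, -0.06 and -0.05 and were not called. Leaving out 1 library at a time gave 8 to 12 calls in this list.

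SLC7A11 is also induced by NRF2, so NRF2 antioxidant targets were read beside it. Of 13 tested, 2 were called higher and 2 lower, or 30.8% against 28.2% of all tested genes, with a median log2 fold change of 0.03. GSR, which uses NADPH to keep glutathione reduced, had a log2 fold change of -0.18 (edgeR adjusted p = 0.00114), and ME1, a source of NADPH, of 0.19 (edgeR adjusted p = 0.0115). The call of ME1 was lost without control replicate 2 or SOX2 siRNA replicate 3 (edgeR adjusted p = 0.051 and 0.0511), and 2 of the 13 were called in each of those fits. NQO1 and TXNRD1 had log2 fold changes of 0.05 and 0.00. Of the 15 hypoxia genes, 0 were called higher and 1 lower, ADM (log2 fold change -0.86, edgeR adjusted p = 4.48e-05). This was 6.67% of them, against 28.2% of all tested genes, and 2 were called without SOX2 siRNA replicate 1.

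**Figure D5:**
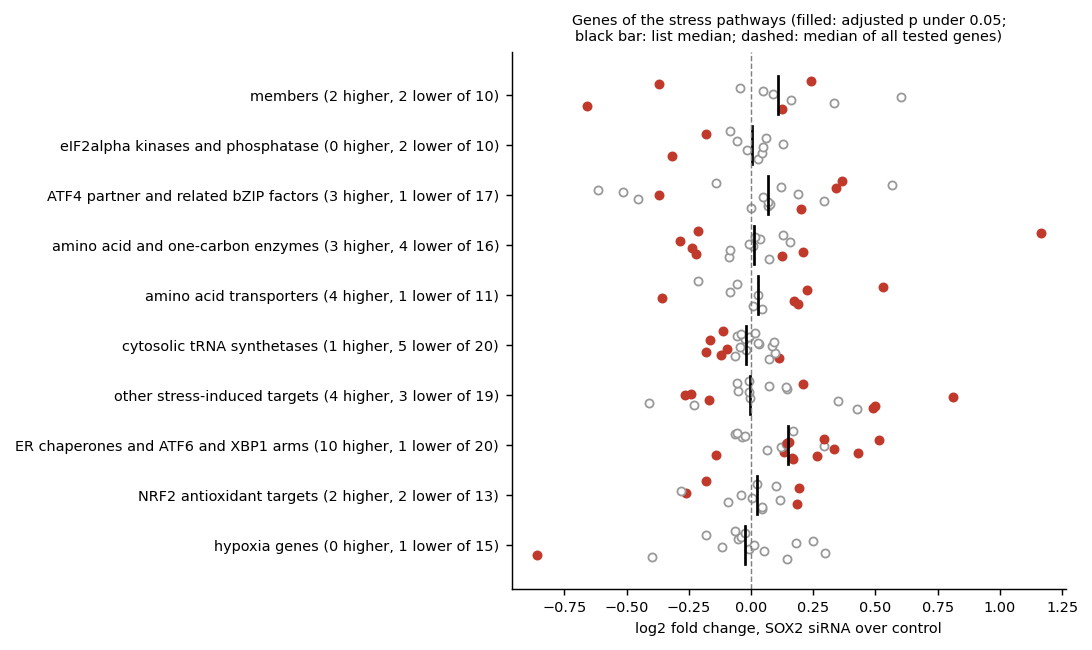
Log2 fold change (horizontal axis) of each tested gene in the lists of stress genes, 1 row per list; filled points had an edgeR adjusted p under 0.05, black bars are list medians and the dashed line is the median of all tested genes. The ER chaperone row has 10 filled points to the right and 1 to the left, and the 10 ATF4 genes have 2 on each side.

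Copies and overlaps limit some of these values. Pseudogenes of ATF4, ASNS and PSAT1 took at most 0.53% as many counts as the gene itself in any library. Exons of SLC7A11 and SLC7A5 overlap an antisense transcript over 8.97% and 5.71% of their length, and neither antisense transcript was among the tested genes by its GENCODE 29 symbol. Among the other genes named, exons of EIF2AK2, MAFG, JDP2, MTHFD1, BCAT1, SLC6A9, GARS1, CDKN1A, CALR and LIN28B overlap a gene on the opposite strand, and those of PPP1CB and MAFG a gene on the same strand.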

How the data were processed

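The deposited table holds raw counts per gene symbol, 1 column per library; the authors' processing is known only from the submitters' processing notes, which name STAR 2.7.3a, Salmon 0.14.1, DESeq2 1.28.1 and GRCh38.p13 without a role. The annotation and strand setting are not given in the sources used here. Genes were kept by filterByExpr (minimum count 10), scaled by TMM and tested with edgeR 4.0.16 (glmQLFit with robust=TRUE, glmQLFTest; R 4.3.3), SOX2 siRNA against control; p-values of the 17592 tested genes were adjusted together by Benjamini-Hochberg. CPM use TMM-scaled library sizes. Intervals are 95% from the same fit. Alternatives used DESeq2 1.42.0 and limma 3.58.1. The procedures were tested on simulated data. The members and lists were chosen with earlier results of these data known. Genes named are the 10 members, SOX2, from each list the called genes with the smallest p (at most 3), and the 5 genes most like the members' mean. Exceptions, named after their values were seen, are other members of the lists and the genes that overlap DDIT3 and ASNS. GENCODE 29 gave exon lengths and overlaps, with MARS1 matched by its older symbol. Replicate pairs differed by more than counting noise (chi-square per degree of freedom 2.77 to 5.91). No library was left out. Results for some genes of the lists are not reported here; they stay in the counts.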

Additional observations from a re-analysis of the deposited data

How the results depend on the processing

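The alternatives were other scalings (DESeq2 size factors, upper quartile, total counts), a filter of 1 count in all or of 10 counts in each library, limma-voom, the Wald test of DESeq2, edgeR with robust=FALSE, a replicate block, and leaving out each library in turn. ATF3, SLC7A11 and SLC7A5 kept direction and call in all 15, and DDIT3, TRIB3, CHAC1, PSAT1 and PHGDH kept their direction and were called in none. Members called numbered 3 to 5 over the 6 fits without 1 library, with 1 to 3 higher and 2 lower. ATF4 ranged from 0.10 to 0.16 in those fits and ASNS from 0.044 to 0.16. All genes called numbered 3760 to 5212. Called genes without 1 library numbered 2 to 4 for bZIP factors, 4 to 9 for amino acid and folate enzymes, 1 to 5 for tRNA synthetases, 4 to 7 for other stress-induced genes, 2 to 4 for NRF2 targets and 1 to 2 for hypoxia genes. With the filter of 1 count 3 tRNA synthetases were called, and 2 hypoxia genes were called with limma-voom and with robust=FALSE. PLGRKT ranged from -0.17 to 0.016 and GRB2 from -0.0069 to 0.044 without 1 library; PLGRKT turned positive without SOX2 siRNA replicate 1 and GRB2 negative without SOX2 siRNA replicate 3, neither called. The cause was not tested. Upper-quartile scaling moved the share of all calls that were higher to 45.8%.

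Nothing in the labels says whether the replicate numbers pair the libraries. Centred within group, same-numbered libraries correlated at 0.11, -0.01 and 0.00, within the -0.15 to 0.15 of different numbers. With 3 libraries per group these correlations cannot exclude pairing. Under the replicate block, log2 fold changes were 0.12 for ATF4, -0.66 for ATF3, -0.37 for SLC7A11 and 0.24 for SLC7A5, and 4 members were called. Of all genes, 5177 were called with the block and 4964 without it. The block lowered the SE of SLC7A5 from 0.055 to 0.040 and that of SLC7A11 from 0.045 to 0.032. It raised the SE of DDIT3, TRIB3 and CHAC1. Depth limited CHAC1 most.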

Other observations

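Beyond the ATF4 genes, the promoter core TGATGNAA was read across the genes that were tested. Of 11533 tested genes with a RefSeq promoter window, 328 (2.84%) held the core on either strand. Among those 328 genes, 68 were called higher and 61 lower with SOX2 siRNA, or 39.3%, where 32.3% of the 11533 were called. Their median log2 fold change was 0.01. For TGACGTCA the share called was 32.6% of 430 genes and for TGACTCA it was 35.5% of 569 genes. These shares are given as a description, and no test of the difference was made.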
